A study of Mus musculus with 20 samples.

Results

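The comparison described here is that of common lymphoid progenitors (CLP, 3 arrays) with lymphoid-primed multipotent progenitors (LMPP, 2 arrays), and the members are the 5 arrays of 20 whose titles name these populations. Both populations were sorted from the bone marrow of wild-type C57bl/6 mice aged 8 to 14 weeks, and their amplified, biotin-labelled RNA was hybridised to Affymetrix mouse arrays. The other 15 arrays of the series hold hematopoietic stem cells (HSC), multipotent progenitors (MPP), granulocyte-monocyte progenitors (GMP), pro-B cells, CD4 T cells, and natural killer (NK) cells of Rag2-deficient mice of the 129 background, either Ets1-deficient or with intact Ets1. The labels name no treatment for either population. The surface gates of the sorts are not in the labels. Nor do they say that each replicate was another mouse, so that the spread behind the p-values may be technical only.

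LMPP are progenitors that have lost most potential for red cells and platelets but can still form lymphoid and myeloid cells. CLP lie further along the lymphoid path: they respond to interleukin 7, a stromal cytokine needed for lymphocyte development in the mouse, and give rise to B cells and to other lymphocytes. Commitment to the B lineage is known to depend on a sequence of transcription factors in which the E protein E2A, encoded by Tcf3, and Foxo1 act with Ebf1, and Ebf1 acts before Pax5. Recombination of antigen receptor genes by the RAG proteins begins in this part of the pathway, while the pre-B receptor is assembled later from the immunoglobulin heavy chain and the surrogate light chain proteins encoded by Vpreb1 and Igll1.

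Levels are given as log2 of the authors' normalised intensity for the probe set that stands for each gene, on CLP replicates 1, 2 and 3 and LMPP replicates 1 and 2 in that order. A difference is CLP minus LMPP on the log2 scale with its standard error (SE), from limma over all 20 arrays, and a gene was called at a Benjamini-Hochberg adjusted p below 0.05. A gene is described as separated where all 3 CLP arrays lay on one side of both LMPP arrays. Levels of different genes are not comparable on these arrays, and array medians ran between 3.78 and 4.04. The table has no detection calls, so a level near or below these medians is not known to be above background.

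The CLP arrays were uneven. The log2 excess of the 3' over the 5' control probe set for actin, which grows when RNA is degraded or amplified from its 3' end, was 5.20, 3.26 and 5.27 on the CLP arrays, against 2.10 and 1.92 on the LMPP arrays. For Gapdh the excess was 5.10, 3.05 and 4.28 on the CLP arrays, against 2.78 and 2.36 on the LMPP arrays. In the quintile of genes with the highest mean level on the other 15 arrays, the median difference from the LMPP mean was -0.63 on CLP replicate 1, 0.02 on CLP replicate 2 and -0.72 on CLP replicate 3. In the lowest quintile it was 0.27, -0.0038 and 0.27. Replicates 1 and 3 thus read strong probe sets lower and dim ones higher than LMPP, whereas replicate 2 did neither, so the counts that lead the main groups were also taken with replicate 2 as the single CLP array. Yet replicate 2 had the lowest array weight, which limma sets by agreement within groups, at 0.18 against 0.76 and 0.27 for replicates 1 and 3. It correlated at 0.94 with both LMPP arrays and with replicate 1, and at 0.92 with replicate 3. The spread between replicates, as the root-mean-square SD, was 0.56 in CLP and 0.24 in LMPP.

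**Figure D1:**
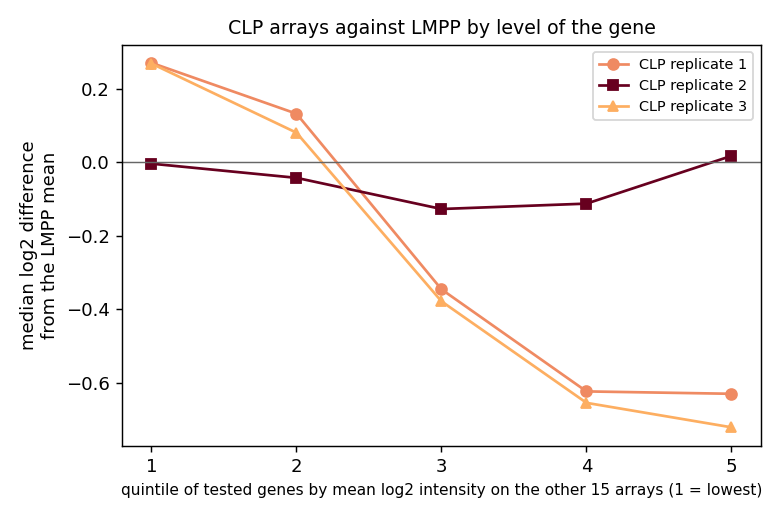
Median log2 difference of each CLP array from the LMPP mean (vertical axis) in quintiles of the 13479 tested genes ranked by their mean log2 intensity on the other 15 arrays (horizontal axis). CLP replicates 1 and 3 run from 0.27 in the lowest quintile to -0.63 and -0.72 in the highest, while CLP replicate 2 stays between -0.13 and 0.02.

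Of 13479 genes tested, 938 (6.96%) were called higher and 2584 (19.2%) lower in CLP than in LMPP, 3522 (26.1%) in all, and 5143 (38.2%) had an unadjusted p below 0.05. Of these, 914 of the higher genes (6.78% of those tested) and 2502 of the lower genes (18.6%) were also separated, while 6246 genes (46.3%) were separated whether called or not, 2360 (17.5%) above and 3886 (28.8%) below. The median difference over all tested genes was -0.08. The fit pools the spread of all 9 groups, and that of CLP was the largest. The SEs and p-values of this comparison may therefore be too small. The 5 CLP and LMPP arrays alone gave 152 higher and 399 lower. With CLP replicate 2 as the single CLP array, which assumes that it varies like the other groups, the counts were 566 higher and 663 lower. Leaving out 1 array gave 395 higher and 1225 lower without LMPP replicate 1, 351 higher and 1223 lower without LMPP replicate 2, and 1492 higher and 3731 lower without CLP replicate 2. The excess of lower calls also depended on scaling: repeated quantile normalization gave 1606 higher and 2103 lower, while centring the arrays on housekeeping genes gave 6101 higher and 846 lower and added 0.84 to every difference. Differences are therefore read against these shifts, and a fall smaller than 0.84 has no settled direction. Of the genes named below, this centring ended the lower calls on Btk (-0.38), Cd74 (-0.04), Gata2 (-0.94), Gstm1 (-0.66), Mpo (-0.30), Nhej1 (-0.01), Nkg7 (-0.15), Spi1 (-0.59), Tal1 (-0.47), Tcf3 (-0.45), Xrcc4 (-0.17) and Zfp521. It called higher Bcl11a, Cd79b, Dntt, Flt3, Ikzf1, Ikzf3, Irf8, Lig4, Spib and Syk, with differences between 0.97 for Ikzf3 and 1.64 for Dntt.

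The labels were checked against defining markers first. Il7r, the interleukin 7 receptor alpha chain by which CLP are recognised, had levels of 11.19, 11.72 and 11.20 on the CLP arrays, against 5.90 and 4.79 on the LMPP arrays, a difference of 6.02 (SE 0.40, adjusted p = 8.55e-09). Ly6d, a surface protein of CLP directed to the B lineage, read 7.06, 7.91 and 7.86 in CLP and 4.22 and 4.08 in LMPP (3.46, SE 0.31, adjusted p = 4.84e-07). Both genes were far apart in the 2 populations, with no overlap. Flt3, the cytokine receptor that both populations carry, had 11.43, 11.48 and 10.88 in CLP and 11.00 and 10.99 in LMPP, and did not pass the test (0.27, SE 0.39, adjusted p = 0.652). Kit, the stem cell factor receptor, which CLP are known to carry at a lower density, fell to 6.76, 8.03 and 6.65 in CLP, against 9.57 and 10.15 in LMPP (-2.71, SE 0.45, adjusted p = 0.000345). Cd34, a marker of LMPP and stem cells, was also lower in CLP, at 8.52, 10.17 and 8.46 against 11.66 and 11.63 in LMPP (-2.59, SE 0.41). Of the 9 defining and gate genes tested, 2 (22.2%) were higher and 4 (44.4%) lower, beside 6.96% and 19.2% of all genes. The higher ones were Il7r and Ly6d. The lower ones were Kit, Cd34, Cd48 (-2.38, SE 0.49) and Cd27 (-1.86, SE 0.29). Cd27 encodes a receptor of the tumour necrosis factor family on early progenitors. CLP replicate 2 alone gave smaller falls for Cd34 (-1.48) and Cd48 (-0.80, no longer called), and averaging the 2 probe sets of Kit gave -1.56.

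The B lineage transcription factors were led by Ebf1, and its difference was the largest rise among the genes called and separated. Ebf1, the factor that opens the B cell programme, had levels of 10.85, 9.93 and 10.42 on the CLP arrays, against 2.53 and 2.41 on the LMPP arrays (7.93, SE 0.34, adjusted p = 4.37e-11). The LMPP levels lay below the array medians, as did those of HSC (2.50 on average) and MPP (2.64). Foxo1, a factor known to act with Ebf1 on Rag1, Rag2 and Il7r, rose to 10.19, 9.99 and 9.91 in CLP, against 6.69 and 6.22 in LMPP (3.58, SE 0.29, adjusted p = 1.2e-07). Pou2af1, a B cell coactivator of octamer-binding proteins, read 5.90, 6.94 and 4.94 in CLP and 2.23 and 2.49 in LMPP (3.57, SE 0.50). On all 3 CLP arrays these genes stood above both LMPP arrays. In sorted cell pools such as these, fewer cells of a type and less RNA per cell cannot be told apart.

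Pax5, which holds cells in the B lineage, was higher in CLP by a much smaller margin, at 4.77, 4.57 and 5.26, against 3.41 and 3.67 in LMPP (1.33, SE 0.25, adjusted p = 0.00115). Its mean level in pro-B cells was 5.14, near that of CLP at 4.87. This probe set had little range, however. The pro-B arrays read 5.36 and 4.91 and HSC replicate 1 read 4.42, while array medians ran between 3.78 and 4.04. The values therefore do not show that CLP and pro-B cells hold like amounts of Pax5 RNA. Bach2, a repressor that guards B cell development against the myeloid programme, differed by 2.32 (SE 0.34) and Irf4, which acts at the pre-B stage, by 1.97 (SE 0.33). Myb, needed for early lymphoid progenitors, differed by 0.78 (SE 0.24). Ets1, the factor the series was designed around in NK cells, read 8.74, 8.82 and 6.99 in CLP and 7.02 and 6.82 in LMPP. It was called (1.27, SE 0.38, adjusted p = 0.0207) but not separated, because CLP replicate 3 lay between the LMPP arrays. Called lower in CLP were Klf2, a factor of quiescence and trafficking (-3.25, SE 0.44), Tcf3, which encodes E2A (-1.29, SE 0.31), and Zfp521, a zinc finger gene of early progenitors (-0.78, SE 0.24, but 0.055 with housekeeping centring). Klf2 is also a member of the list of immediate early and stress genes described below.

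In all, 8 of 21 B lineage factors (38.1%) were called higher and 3 (14.3%) lower in CLP, beside 6.96% and 19.2% of all genes. Their median difference was 0.49, beside -0.08 over all genes tested. The single CLP replicate 2 gave 8 higher and 1 lower with a median of 0.48. Among the factors that did not pass the test, Spib differed by 0.33 (SE 0.23) and Ikzf3 by 0.14 (SE 0.27). Both read near or below the array medians in CLP and LMPP. Ikzf1, the lymphoid regulator Ikaros, differed by 0.44 (SE 0.23) and Bcl11a by 0.49 (SE 0.31), and neither passed the test. The mean over the 7 probe sets of Bcl11a was 0.49 and passed the test (adjusted p = 0.0345), and 1 of them, taken singly, differed by 1.301 (SE 0.33, adjusted p = 0.00949), so its call depends on the probe set. Averaging a gene's probe sets in place of taking the brightest gave 3.97 for Ebf1, 1.81 for Foxo1, 1.06 for Irf4, and 0.24 for Myb and 0.67 for Ets1, neither still called. The call on Tcf3 ended without LMPP replicate 2 (-1.23, adjusted p = 0.061), and that on Myb without either LMPP array (0.67 and 0.88), while the call on Ets1 ended without CLP replicate 1 (0.99) or either LMPP array (1.37 and 1.17), and that on Zfp521 without CLP replicate 3 (-0.57) or either LMPP array (-0.84 and -0.72).

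**Figure D2:**
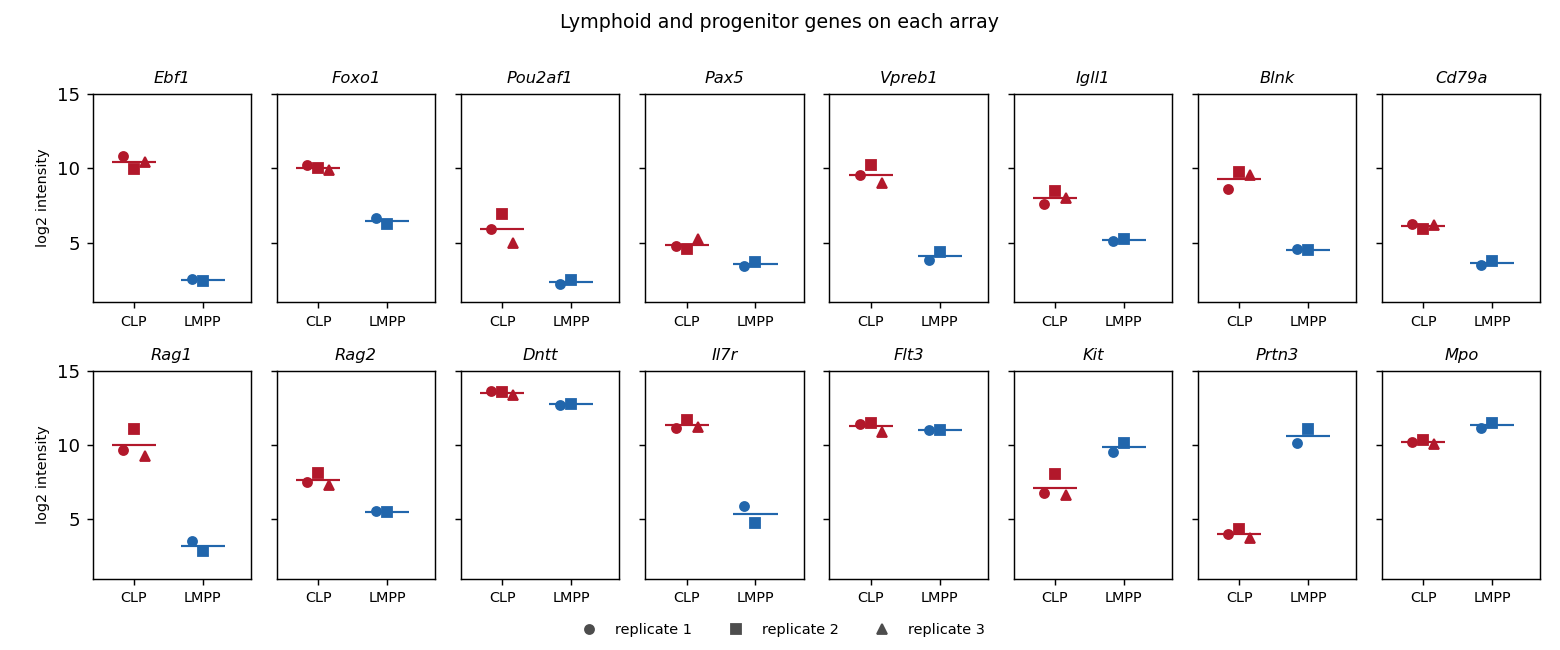
Log2 intensity (vertical axis) of 16 genes on each CLP array (red, left) and LMPP array (blue, right), with marker shape giving the replicate and the line the group mean. Ebf1, Rag1, Il7r and Vpreb1 lie between 8.99 and 11.72 on the CLP arrays and at or below 5.90 on the LMPP arrays, while Flt3 overlaps between the groups.

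Of 22 genes of the pre-B receptor and the B cell surface, 10 (45.5%) were called higher in CLP and 2 (9.09%) lower. Over all genes the shares were 6.96% and 19.2%. Vpreb1, which encodes a surrogate light chain protein, rose to 9.53, 10.22 and 8.99 in CLP, against 3.82 and 4.36 in LMPP (5.49, SE 0.39, adjusted p = 2.04e-08). Its partner Igll1, which encodes lambda 5, read 7.60, 8.45 and 7.99 in CLP and 5.09 and 5.21 in LMPP (2.86, SE 0.30, adjusted p = 3.26e-06). Blnk, the adaptor that links the receptor to its downstream enzymes, had 8.60, 9.76 and 9.56 in CLP and 4.55 and 4.50 in LMPP (4.78, SE 0.34). Each of the 3 genes was well above both LMPP arrays on every CLP array. Cd79a, the signalling chain of the receptor, was higher as well, at 6.22, 5.90 and 6.17 in CLP against 3.47 and 3.72 in LMPP (2.50, SE 0.24), whereas its partner Cd79b read 6.61, 7.68 and 5.44 in CLP and 5.97 and 6.03 in LMPP, so that CLP replicate 3 lay below LMPP and the gene did not pass the test (0.58, SE 0.44, adjusted p = 0.351). The kinase gene Blk differed by 2.57 (SE 0.27), and the genes of the secretory-path proteins Mzb1 and Vpreb3 by 2.09 (SE 0.40) and 1.37 (SE 0.22). Cd93, a surface protein of early B cells, differed by 0.87 (SE 0.23) and Bst1 by 0.85 (SE 0.22). Bst1 read 3.96, 3.54 and 3.20 in CLP and 2.57 and 2.87 in LMPP, each below the median of its array.

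The median difference over the 22 genes was 0.71. With CLP replicate 2 alone there were also 10 higher, with none lower and a median of 0.82. The lower ones were the kinase gene Btk (-1.22, SE 0.39), whose protein acts downstream of Blnk, and Cd74, the invariant chain of antigen presentation (-0.87, SE 0.30). Syk, the kinase that phosphorylates Blnk, did not pass the test (0.55, SE 0.24, adjusted p = 0.104). The call on Btk ended without CLP replicate 1 (-1.13), CLP replicate 3 (-0.99), LMPP replicate 1 (-1.34) or LMPP replicate 2 (-1.10), that on Cd74 without CLP replicate 1 (-0.73) or LMPP replicate 1 (-0.49), that on Bst1 without LMPP replicate 1 (0.70) and that on Cd93 without LMPP replicate 2 (0.77). Averaging the probe sets gave 1.35 for Igll1 and 0.51 for Bst1.

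The surrogate light chain promoters are textbook targets of Ebf1, so the promoter windows of the raised genes were searched for the motif of the EBF family. Windows span 250 bases before to 50 after the annotated start and come from RefSeq (GRCm38.p6). The motif CCCNNGGG, searched on both strands, was present in 1 of the 5 called genes of this list that had a window, and in 21.1% of the 10845 tested genes with a window. The gene was Igll1, on the minus strand at chr16:16863936-16864235, and its window is printed with the matching bases in capitals because it is the raised gene of this list whose window holds the motif.
Igll1: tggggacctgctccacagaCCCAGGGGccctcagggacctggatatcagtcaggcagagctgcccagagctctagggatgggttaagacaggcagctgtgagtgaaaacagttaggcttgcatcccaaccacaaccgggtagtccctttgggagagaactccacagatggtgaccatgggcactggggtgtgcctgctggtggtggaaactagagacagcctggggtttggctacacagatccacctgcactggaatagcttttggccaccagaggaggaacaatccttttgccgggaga
The E box CANNTG was present in 5 of 5 such genes and in 68.8% of tested genes, and the ETS core GGAA in 5 of 5 and in 96.2%. A match to letters is a description of the window, and windows without a match say nothing about a factor's binding.

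Both genes of the V(D)J recombinase rose in CLP. Rag1, which encodes the catalytic subunit, rose to 9.70, 11.07 and 9.25 in CLP, against 3.56 and 2.91 in LMPP (6.77, SE 0.39, adjusted p = 2.25e-09). Rag2, its partner, read 7.50, 8.16 and 7.34 in CLP and 5.55 and 5.47 in LMPP (2.16, SE 0.39, adjusted p = 0.000666). Both were separated on every array. Dntt, which encodes the terminal transferase that adds bases at the joins, had 13.67, 13.60 and 13.37 in CLP and 12.72 and 12.76 in LMPP. All 3 CLP arrays lay above LMPP, but the difference did not pass the test (0.81, SE 0.35, adjusted p = 0.0944). Another probe set of Dntt ran the other way (-0.69, SE 0.44, adjusted p = 0.282), and the mean over its 3 probe sets was 0.25. Its level was already high in LMPP, where it exceeded MPP by 4.75 (SE 0.38, adjusted p = 8.82e-07).

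Of the 15 recombination genes tested, 2 were called higher and 3 (20%) lower, beside 6.96% and 19.2% of all genes, with a median of -0.09. The lower genes were Hmgb2 (-1.44, SE 0.43), a chromatin protein that assists RAG cleavage in vitro, and the end-joining genes Xrcc4 (-1.002, SE 0.27) and Nhej1 (-0.85, SE 0.27). Lig4, the ligase of the same step, differed by 0.45 (SE 0.26) and was not called. CLP replicate 2 alone called none of the genes of this list lower, and the lower calls numbered 1 without CLP replicate 3 or either LMPP array and 5 without CLP replicate 2. The call on Hmgb2 ended without CLP replicate 1 (-1.38), CLP replicate 3 (-0.88) or either LMPP array (-1.48 and -1.41), that on Xrcc4 without LMPP replicate 1 (-0.80) and that on Nhej1 without CLP replicate 3 (-0.64) or LMPP replicate 2 (-0.60), and averaging probe sets gave -2.18 for Hmgb2 and -0.37 for Nhej1.

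Il7r rose, whereas most genes of its signalling path did not pass the test. Of 18 genes of this path tested, 3 (16.7%) were called higher and 4 (22.2%) lower, beside 6.96% and 19.2% of all genes, with a median of -0.14. Beside Il7r, the feedback inhibitor Socs2 was higher, at 5.76, 4.83 and 6.09 in CLP against 3.89 and 4.04 in LMPP (1.59, SE 0.39). Another inhibitor, Socs3, moved the opposite way, with 6.84, 6.38 and 6.15 in CLP and 9.31 and 9.55 in LMPP (-2.98, SE 0.50, adjusted p = 0.00042). The receptor kinase genes were lower: Jak3 read 5.57, 5.60 and 5.71 in CLP and 7.67 and 7.47 in LMPP (-1.94, SE 0.28), and Jak1 6.68, 8.12 and 7.74 in CLP and 9.18 and 9.36 in LMPP (-1.76, SE 0.36). CLP replicate 2 alone gave -1.97 for Jak3, close to the value from all arrays, but -1.15 for Jak1 and 0.87 for Socs2, neither of which was then called. Averaging probe sets gave -0.68 for Jak1 and 0.88 for Socs2, the call on Jak1 ending, and without LMPP replicate 1 the call on Socs2 ended (1.52, adjusted p = 0.0588).

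Genes of early lymphoid priming and of other lymphoid fates were also compared, beside 6.96% of all genes called higher and 19.2% lower. In the priming list 8 of 23 genes were called higher and 1 lower, with a median of 0.49, and CLP replicate 2 alone gave 9 higher and 1 lower with a median of 0.78. Notch1, the receptor that directs progenitors to the T lineage in the thymus, read 11.86, 11.68 and 11.70 in CLP and 10.49 and 10.28 in LMPP (1.36, SE 0.28, adjusted p = 0.00188). Ccr9, a chemokine receptor used in homing to the thymus, had 7.87, 8.83 and 7.94 in CLP and 6.30 and 4.15 in LMPP (2.99, SE 0.41). The LMPP arrays differed from each other more than the CLP arrays did in Ccr9, and without LMPP replicate 2 the difference was 1.92. Averaging probe sets gave 0.86 for Ccr9.

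Of 15 T cell markers tested, 6 (40%) were called higher in CLP and none lower, beside 6.96% and 19.2% of all genes, with a median of 0.42. With CLP replicate 2 as the single CLP array 5 were higher, and Cd8a, at 0.24, was not called. Icos, a T cell costimulatory receptor, led them, with 8.12, 7.52 and 7.88 in CLP and 4.95 and 5.31 in LMPP (2.71, SE 0.28, adjusted p = 2.12e-06). Cd247, the zeta chain of the T cell receptor complex, differed by 1.61 (SE 0.33), Cd6 by 1.23 (SE 0.29), Cd5 by 0.87 (SE 0.23) and Cd8a by 0.98 (SE 0.30). Cd5 read 3.19, 3.99 and 3.97 in CLP and 2.94 and 2.74 in LMPP, near or below the array medians. Cd8a read 5.55, 4.50 and 5.67 in CLP and 4.27 and 4.24 in LMPP. CLP replicates 1 and 3 read the lowest quintile of genes 0.27 above LMPP, and the part of this shift in such calls was not tested. The summed level of the list lay between 9.42 and 9.63 on the CLP arrays, between 8.67 and 8.80 on the LMPP arrays, and at 13.84 on CD4 T cell replicate 1, and the part of T cells in these values was not tested. Without LMPP replicate 2 the count was 2, and the calls on Cd5 (0.77) and Cd6 (1.09) ended, while that on Cd8a ended without CLP replicate 1 (0.83), CLP replicate 3 (0.77) or either LMPP array (1.00 and 0.96), and averaging probe sets gave 1.51 for Icos and 0.46 for Cd247, which was then not called.

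Of 15 NK cell markers 1 was higher, Klrd1, an NK receptor gene (2.20, SE 0.34), and 1 was lower, Nkg7, a granule protein gene (-0.99, SE 0.30), with a median of 0.09. Each was 6.67% of the markers, beside 6.96% of all genes called higher and 19.2% lower. The summed NK level was 8.95 to 9.55 on the CLP arrays, 9.63 to 9.65 on the LMPP arrays and 15.14 on replicate 1 of the Rag2-deficient NK cells with intact Ets1. Of 21 genes of T and innate lymphoid specification 4 (19.0%) were higher and 1 (4.76%) lower, with a median of 0.32. Il18r1, a cytokine receptor of innate lymphocytes, was among the higher, at 7.36, 8.12 and 7.40 in CLP, against 5.74 and 4.92 in LMPP (2.30, SE 0.34). Rora, a factor of innate lymphoid cells, was called higher as well (0.98, SE 0.31), but the mean over its 9 probe sets was -0.25, so its direction depends on the probe set. Without LMPP replicate 2 the higher genes of the specification list numbered 2. The calls on Nkg7 and Rora ended without CLP replicate 1 (-0.73 and 0.72), LMPP replicate 1 (-0.98 and 1.10) or LMPP replicate 2 (-1.001 and 0.87).

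Of 31 genes of stem cells and multipotent progenitors, 15 (48.4%) were called lower in CLP and 1 (3.23%) higher, beside 19.2% and 6.96% of all genes. With housekeeping centring 8 were lower and 8 higher. Hlf, a transcription factor of stem cells, fell to 5.59, 5.10 and 4.61 in CLP, against 9.49 and 9.22 in LMPP (-4.26, SE 0.29, adjusted p = 1.45e-08). Procr, the endothelial protein C receptor used to mark stem cells, read 2.95, 3.15 and 3.35 in CLP and 6.90 and 7.06 in LMPP (-3.83, SE 0.25). In both genes the CLP arrays were far below LMPP, and CLP replicate 2 alone gave nearly the same differences (-4.26 and -3.84). Procr read below the array median on all 3 CLP arrays, so its CLP level is not known to be above background. Lmo2, a bridging protein of stem cell transcription complexes, had 8.90, 10.42 and 8.56 in CLP and 12.37 and 12.51 in LMPP (-3.14, SE 0.37, and -2.02 with CLP replicate 2 alone). Angpt1, a ligand of the receptor Tek, read 6.80, 7.92 and 5.91 in CLP and 9.85 and 9.97 in LMPP (-3.03, SE 0.42). Meis1, a partner of Hox proteins, differed by -1.88 (SE 0.47), Gata2 by -1.77 (SE 0.35) and Tal1 by -1.30 (SE 0.29), Gata2 and Tal1 being factors of stem and erythroid cells.

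The median over the 31 genes was -0.74, and CLP replicate 2 alone gave 11 lower and 2 higher with a median of -0.88. Centring on housekeeping genes moved the median to 0.09. Hlf and Procr remained lower there (-3.42 and -3.00). Without LMPP replicate 1 the calls on Meis1 (-1.83) and Tal1 (-1.16) ended, and averaging probe sets gave -1.59 for Angpt1, -1.15 for Gata2 and -0.53, no longer called, for Meis1. CLP replicate 2 alone gave -1.99 for Angpt1 and -0.81 for Meis1, which was then not called.

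Myeloid genes did not move as 1 group. Prtn3, which encodes a protease of neutrophil granules, fell to 4.02, 4.33 and 3.76 in CLP, against 10.15 and 11.06 in LMPP (-6.57, SE 0.34, adjusted p = 6.09e-10). Ctsg, another granule protease gene, read 5.39, 5.47 and 4.70 in CLP and 8.89 and 10.13 in LMPP (-4.32, SE 0.43). Mpo, the myeloperoxidase gene of the same granules, stayed high in CLP: it had 10.21, 10.34 and 10.06 in CLP, against 11.15 and 11.53 in LMPP, and its difference was -1.14 (SE 0.37, adjusted p = 0.0301). The CLP level of Prtn3 was near the array medians, whereas that of Mpo was well above the 4.08 of pro-B cells and below the 13.89 of GMP. Of 19 granule genes tested 4 (21.1%) were lower, close to the 19.2% of all genes, and none higher, with a median of 0.02. Gstm1, a glutathione transferase gene of this list, was one of the lower, at 6.57, 6.37 and 7.08 in CLP and 8.00 and 8.34 in LMPP (-1.50, SE 0.29). Their summed level lay between 11.04 and 11.82 on the CLP arrays, between 12.54 and 13.06 on the LMPP arrays and at 15.19 on GMP replicate 1. The call on Mpo ended without CLP replicate 1 (-1.14), CLP replicate 3 (-1.06), LMPP replicate 1 (-1.32) or LMPP replicate 2 (-0.95), and with repeated quantile normalization (-0.80), and averaging probe sets gave -0.87 for Gstm1.

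Among myeloid transcription factors 10 of 17 (58.8%) were called lower and 1 (5.88%) higher, beside 19.2% and 6.96% of all genes. Their median was -1.26. With CLP replicate 2 alone there were 10 lower and 2 higher with a median of -1.43, and centring on housekeeping genes gave 5 lower and 4 higher with a median of -0.43. The list also holds immediate early genes such as Jun and Junb, described below. Spi1, which encodes the myeloid and lymphoid factor PU.1, read 6.92, 6.09 and 5.99 in CLP and 7.79 and 7.73 in LMPP (-1.43, SE 0.28, adjusted p = 0.00143), but -0.59 and no longer called with housekeeping centring. Tfec, a factor of the monocyte lineage, had 3.03, 2.97 and 2.68 in CLP and 5.40 and 5.37 in LMPP (-2.49, SE 0.19). Irf8, a factor of monocytes, dendritic cells and B cells, did not pass the test, at 10.03, 10.99 and 9.86 in CLP and 9.45 and 10.06 in LMPP (0.54, SE 0.34).

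Of 25 myeloid receptor and signalling genes 7 (28%) were lower and 1 (4%) higher in CLP, beside 19.2% and 6.96% of all genes. Their median was -0.29. Il1r1, the interleukin 1 receptor, read 7.50, 7.47 and 7.60 in CLP and 9.89 and 10.06 in LMPP (-2.45, SE 0.22, adjusted p = 4.72e-07). Csf3r, the receptor of granulocyte colony-stimulating factor, had 5.08, 5.67 and 6.06 in CLP and 8.15 and 7.99 in LMPP (-2.46, SE 0.36). Both were separated with no CLP array near LMPP. The chemokine gene Ccl3 had the largest fall among the genes called and separated, with 4.26, 4.03 and 4.50 in CLP and 11.30 and 11.06 in LMPP (-6.92, SE 0.46, adjusted p = 8.76e-09). In LMPP it also exceeded MPP, by 4.56 (SE 0.50, adjusted p = 1.97e-05). The chemokines Ccl9 (-4.43, SE 0.40) and Cxcl2 (-4.76, SE 0.47) were lower too. Lyz2, the lysozyme gene of myeloid cells, differed by -2.64 (SE 0.29) and Anxa3 by -2.20 (SE 0.33). Averaging probe sets gave -1.28 for Il1r1 and -2.93 for Ccl9.

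Immediate early and stress genes, which respond within minutes to growth factors, stress or handling of cells, were called lower in CLP in 24 of 31 cases. Jun, a subunit of the AP-1 factor, read 5.42, 5.42 and 5.29 in CLP and 11.30 and 11.37 in LMPP (-5.96, SE 0.32, adjusted p = 7.59e-10). Fosb, another AP-1 subunit, had 3.81, 3.34 and 4.02 in CLP and 9.50 and 9.02 in LMPP (-5.54, SE 0.39). Dusp1, a phosphatase that ends MAP kinase signals, had 6.61, 5.72 and 6.65 in CLP and 11.58 and 11.58 in LMPP (-5.25, SE 0.33). On the 3 CLP arrays the levels of Jun lay together, while in Fosb and Dusp1 replicate 2 was the lowest. Fosb read below the array median on all 3 CLP arrays. Zfp36, which promotes decay of cytokine messages, differed by -4.21 (SE 0.36), Ier3 by -4.13 (SE 0.27), the nuclear receptor gene Nr4a1 by -4.08 (SE 0.51), Junb by -3.91 (SE 0.39), Klf4 by -3.19 (SE 0.46) and Egr1 by -2.96 (SE 0.51). In Egr1 the CLP arrays were spread, at 8.22, 6.59 and 9.37, and replicate 2 was the lowest.

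None of the 31 genes was called higher, and their median was -2.35, beside 19.2% of all genes called lower. By array, the median difference from the LMPP mean was -2.34, -2.59 and -2.19 on CLP replicates 1, 2 and 3. The count was 19 with CLP replicate 2 alone and 20 with housekeeping centring, which also called 3 higher. Across the populations, Jun averaged 11.38 in HSC, 11.45 in MPP, 11.33 in LMPP, 5.38 in CLP and 7.61 in pro-B cells, and 5.86 in GMP. The labels do not say whether sorts were done on the same day or in the same way for CLP as for LMPP.

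**Figure D3:**
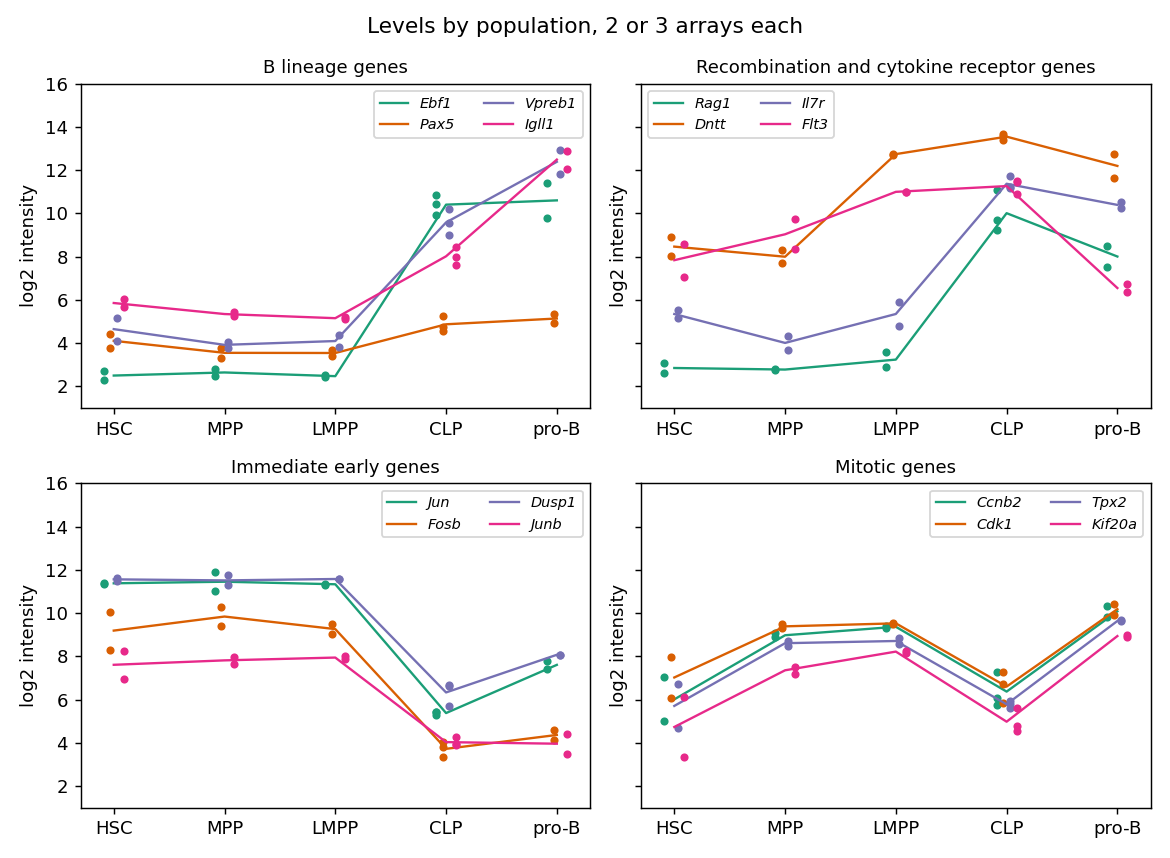
Log2 intensity (vertical axis) of 16 genes in 5 populations ordered from stem cells to pro-B cells (horizontal axis); points are arrays and lines join group means. Ebf1, Vpreb1, Rag1 and Il7r stand higher in CLP than in LMPP, Jun, Fosb, Dusp1 and Junb stand lower in CLP and pro-B cells than in the 3 earlier populations, and the mitotic genes are lower in CLP than in both LMPP and pro-B cells.

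Of 29 genes of mitosis, 27 were called lower in CLP and none higher. Ccnb2, which encodes cyclin B2, read 5.76, 7.29 and 6.06 in CLP and 9.42 and 9.31 in LMPP (-3.00, SE 0.45, adjusted p = 0.00015). Cdk1, the kinase that cyclin B2 activates, had 5.84, 7.26 and 6.71 in CLP and 9.51 and 9.54 in LMPP (-2.92, SE 0.42, adjusted p = 0.000103). Ube2c, the ubiquitin-conjugating enzyme of the anaphase-promoting complex, had 6.03, 6.52 and 5.59 in CLP and 9.13 and 9.13 in LMPP (-3.09, SE 0.55). CLP replicate 2 was the highest of the CLP arrays in each of these genes and still lay below both LMPP arrays. The spindle genes Kif20a (-3.24, SE 0.51) and Tpx2 (-2.93, SE 0.40) were lower as well.

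The median over the 29 mitotic genes was -2.10, beside 19.2% of all genes called lower, and all 29 lay below both LMPP arrays on each of the 3 CLP arrays. By array the median difference from the LMPP mean was -2.51, -1.78 and -2.38. CLP replicate 2 alone gave 14 calls, and housekeeping centring 19 with a median of -1.26. In pro-B cells the same 5 named genes were higher than in CLP, by 3.71 for Ccnb2, 3.58 for Cdk1, 3.72 for Ube2c, 3.96 for Kif20a and 3.85 for Tpx2, all called. Averaging the 4 probe sets of Tpx2 gave -1.26 for CLP minus LMPP.

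Promoters of cell cycle genes that peak in mitosis are known to carry CCAAT boxes, bound by NF-Y, and an element named CHR, bound by the DREAM and MuvB complexes. Of the 27 mitotic genes lower in CLP, 22 had a RefSeq promoter window. On both strands, CCAAT was present in 18 of 22 (81.8%), against 42.4% of tested genes with a window, and TTTGAA, the CHR element, in 16 of 22 (72.7%), against 14.5%. Both occurred in 1 window in 15 of 22 (68.2%), against 5.79% of tested genes. The windows of 3 named genes are printed because they hold both elements, with CCAAT boxes and CHR elements in capitals on either strand (ATTGG and TTCAAA are the reverse complements). Their positions are chr9:70421505-70421804 (minus strand) for Ccnb2, chr10:69352863-69353162 (minus strand) for Cdk1 and chr2:164769679-164769978 (plus strand) for Ube2c, all on GRCm38.p6.
Ccnb2: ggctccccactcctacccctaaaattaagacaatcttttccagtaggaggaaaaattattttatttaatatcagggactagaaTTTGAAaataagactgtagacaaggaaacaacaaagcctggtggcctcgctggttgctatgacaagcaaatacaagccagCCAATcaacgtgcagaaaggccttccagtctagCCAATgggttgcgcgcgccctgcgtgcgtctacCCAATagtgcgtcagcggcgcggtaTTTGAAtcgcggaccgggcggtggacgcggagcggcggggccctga
Cdk1: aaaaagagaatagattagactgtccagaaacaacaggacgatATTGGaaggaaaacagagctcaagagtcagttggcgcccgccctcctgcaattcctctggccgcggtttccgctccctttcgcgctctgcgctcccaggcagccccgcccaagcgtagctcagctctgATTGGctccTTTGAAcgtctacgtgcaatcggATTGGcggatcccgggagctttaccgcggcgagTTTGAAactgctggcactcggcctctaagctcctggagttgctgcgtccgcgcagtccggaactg
Ube2c: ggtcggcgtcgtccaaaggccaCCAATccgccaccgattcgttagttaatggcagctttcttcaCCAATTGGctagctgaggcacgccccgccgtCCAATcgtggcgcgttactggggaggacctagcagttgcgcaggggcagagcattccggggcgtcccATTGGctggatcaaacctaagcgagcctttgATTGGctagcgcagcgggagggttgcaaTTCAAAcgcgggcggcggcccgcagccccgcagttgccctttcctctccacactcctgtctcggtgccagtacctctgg
In Ube2c a forward and a reverse CCAAT box overlap in the run CCAATTGG. These shares describe the windows of a list chosen for its function and were not tested.

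**Figure D4:**
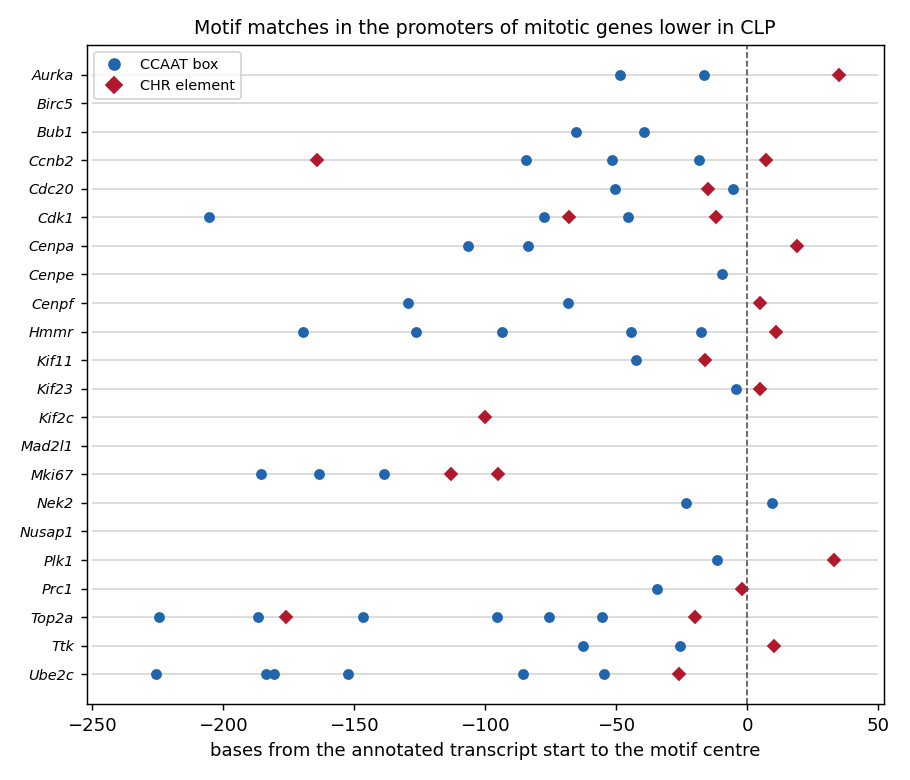
Positions of CCAAT boxes (blue circles) and CHR elements (red diamonds) in the promoter windows of the 22 mitotic genes called lower in CLP, as bases from the annotated transcript start (horizontal axis, 0 marked by the dashed line). For Prc1, which has 2 windows, the first is drawn. A CCAAT box is present in 18 genes and a CHR element in 16.

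Genes of DNA replication and of energy metabolism were called lower in CLP, but the differences were smaller on CLP replicate 2 than on replicates 1 and 3. Their counts stand beside 19.2% of all genes called lower and 6.96% higher. Of 28 replication genes 12 were lower and none higher, with a median of -0.77, yet the median on CLP replicate 2 was -0.01 and with it alone 2 were lower and 2 higher. Tk1, thymidine kinase, read 6.43, 7.43 and 6.45 in CLP and 9.06 and 8.87 in LMPP (-2.20, SE 0.31) and remained called with CLP replicate 2 alone (-1.54). Pcna, the sliding clamp of DNA polymerase, had 9.51, 11.64 and 9.48 in CLP and 12.16 and 12.22 in LMPP (-1.98, SE 0.42) and was not called with CLP replicate 2 alone (-0.55). The cell cycle inhibitors Cdkn2d (-2.34, SE 0.30) and Cdkn2c (-1.72, SE 0.30) were lower in CLP too, among 6 lower and 1 higher of 18 cyclin and inhibitor genes. Without LMPP replicate 1 the replication genes called lower numbered 6, and without LMPP replicate 2 they numbered 4, while those of cyclins and inhibitors numbered 3 and 2.

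Of 22 glycolysis and nutrient transport genes 15 (68.2%) were lower and 1 (4.55%) higher, beside 19.2% and 6.96% of all genes. Their median of -0.93 became -0.53 on CLP replicate 2. Pkm, the pyruvate kinase gene, read 7.63, 8.48 and 7.78 in CLP and 9.92 and 10.01 in LMPP (-2.002, SE 0.25). Of 28 respiratory chain genes 18 were lower and none higher, with a median of -1.05 that became -0.47 on CLP replicate 2. Sdhc, a subunit of succinate dehydrogenase, had 5.64, 7.02 and 5.29 in CLP and 8.33 and 8.80 in LMPP (-2.58, SE 0.36, and -1.54 with CLP replicate 2 alone). Ndufa4, a respiratory chain subunit, had 6.12, 7.95 and 6.65 in CLP and 9.41 and 9.18 in LMPP (-2.39, SE 0.37). Of the housekeeping genes used for centring, 8 of 14 were lower and none higher, with a median of -0.76 that became -0.21 on CLP replicate 2. Without LMPP replicate 1 the lower calls numbered 9 for glycolysis and 4 for housekeeping genes, and without LMPP replicate 2 they numbered 7 for glycolysis, 9 for the respiratory chain and 4 for housekeeping genes. With CLP replicate 2 alone they numbered 6 for glycolysis, 4 for the respiratory chain and 1 for housekeeping genes. Among the CLP and LMPP arrays the excess of 3' over 5' signal was highest on the same CLP replicates 1 and 3. The 3 GMP arrays had a larger excess, at 6.45, 6.68 and 6.44 for actin and 5.35, 5.69 and 5.57 for Gapdh. Their interquartile ranges of log2 intensity were 3.15, 3.07 and 3.04, against 2.46 and 2.50 on CLP replicates 1 and 3. The part of the 3' excess in these lower calls was not tested.

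**Figure D5:**
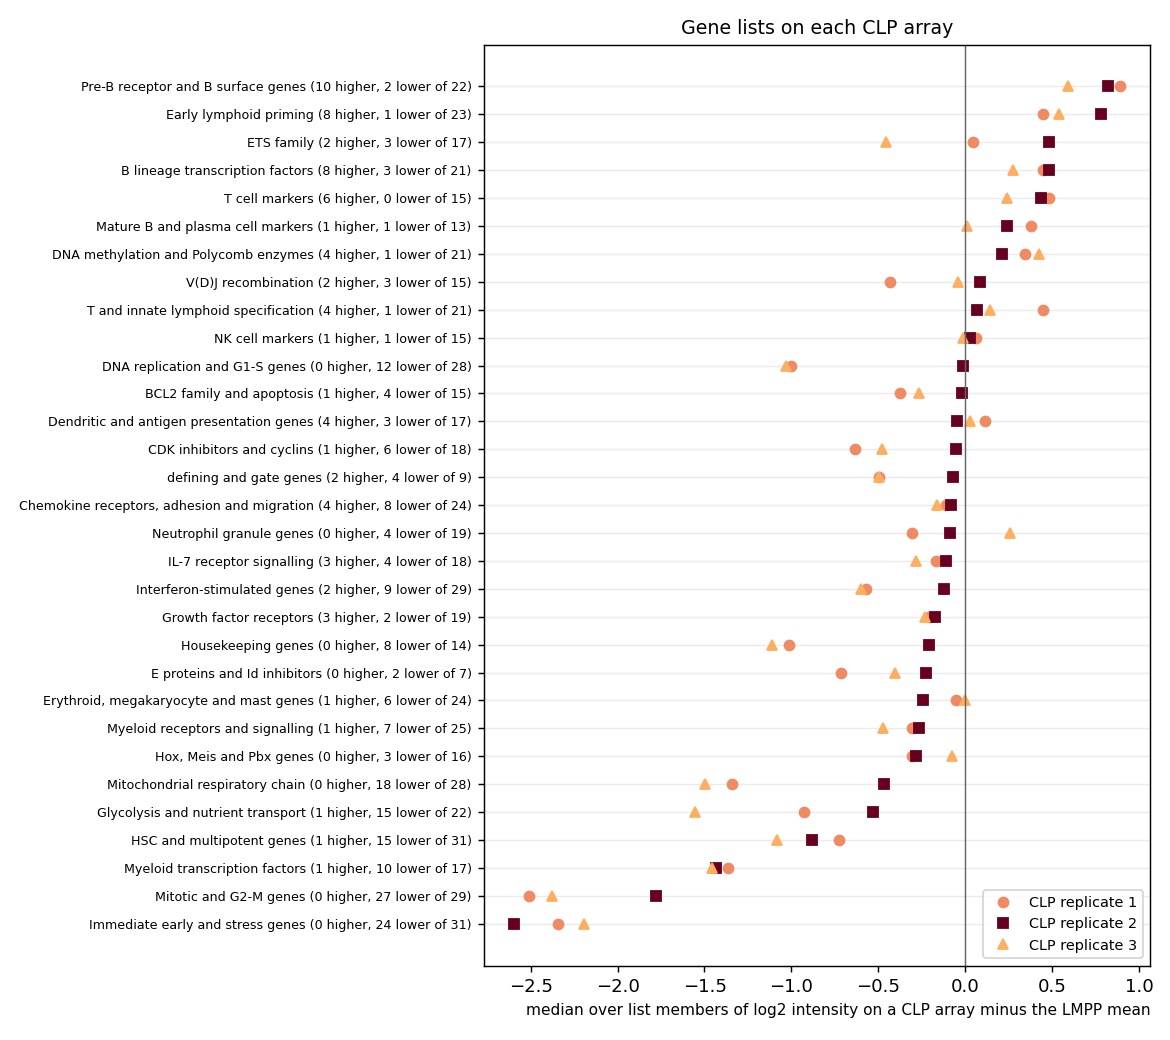
Median over the tested members of each gene list of the log2 intensity on a CLP array minus the LMPP mean (horizontal axis), for the 31 lists with their counts called higher and lower in CLP in the fit of all arrays. Mitotic, immediate early and myeloid factor lists lie far below 0 on all 3 CLP arrays, while the replication, respiratory chain and housekeeping lists lie at -0.01, -0.47 and -0.21 on CLP replicate 2 and at or below -1 on replicates 1 and 3.

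Genes of migration and adhesion moved in both directions, with 4 of 24 (16.7%) higher and 8 (33.3%) lower, beside 6.96% and 19.2% of all genes. Their median was -0.09. Cxcr4, the receptor of the marrow chemokine Cxcl12, read 10.18, 10.45 and 9.55 in CLP and 7.52 and 5.86 in LMPP (3.37, SE 0.82, adjusted p = 0.00594). Its LMPP arrays were far apart, and without LMPP replicate 2 the call ended (2.54, adjusted p = 0.117). Itgb7, an integrin chain of gut homing, had 4.58, 4.88 and 5.39 in CLP and 7.47 and 7.31 in LMPP (-2.45, SE 0.29). The laminin-binding integrin chain Itga6 differed by -2.15 (SE 0.30) and its partner Itgb1 by -2.53 (SE 0.38). Averaging probe sets gave -0.82 for Itgb1, and CLP replicate 2 alone gave -1.52. Without LMPP replicate 2, 1 gene of the list was called higher and 6 lower.

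Several of the largest changes were in genes outside these lists. Gimap4, a GTPase gene of lymphocytes, read 8.89, 9.84 and 9.38 in CLP and 4.25 and 3.99 in LMPP (5.25, SE 0.34, adjusted p = 7.9e-09). Pgr, the progesterone receptor, had 8.31, 8.02 and 7.89 in CLP and 3.80 and 2.83 in LMPP (4.76, SE 0.30, adjusted p = 5.19e-09). Pde2a, a phosphodiesterase of cyclic nucleotides, had 11.44, 10.94 and 11.36 in CLP and 6.70 and 7.44 in LMPP (4.18, SE 0.33). These 3 genes were separated by wide gaps. A pair of sialic acid enzymes rose together: St6gal1, a sialyltransferase, with 9.87, 10.14 and 8.19 in CLP and 5.64 and 5.09 in LMPP (4.04, SE 0.50), and Cmah, which hydroxylates sialic acid, with 10.15, 11.18 and 10.58 in CLP and 7.10 and 6.28 in LMPP (3.95, SE 0.31). Gdpd3, of the glycerophosphodiester phosphodiesterase family, differed by 3.70 (SE 0.39), Prkcb, which encodes protein kinase C beta, by 3.53 (SE 0.34), and Slc27a2, a fatty acid transport protein gene, by 3.47 (SE 0.41). The LMPP arrays of Slc27a2 lay apart, at 5.66 and 3.41, and its difference was 4.60 without LMPP replicate 1 and 2.35 without LMPP replicate 2. Averaging probe sets gave 2.01 for Pgr, 2.51 for Pde2a, 2.25 for St6gal1, 1.60 for Cmah and 2.06 for Prkcb.

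On the side of the falls, Rgs1, a regulator of G protein signals, read 5.62, 6.45 and 6.86 in CLP and 11.26 and 11.04 in LMPP (-4.85, SE 0.39). Vldlr, a lipoprotein receptor, had 4.07, 3.96 and 3.78 in CLP and 8.36 and 9.13 in LMPP (-4.81, SE 0.28). Car2, a carbonic anhydrase of erythroid cells and stem cells, had 6.57, 8.16 and 6.65 in CLP and 11.70 and 11.76 in LMPP (-4.61, SE 0.48). The linker histone gene H1f2 differed by -4.83 (SE 0.54), with its CLP arrays spread at 5.14, 6.27 and 3.74. Nfe2, a factor of the megakaryocyte lineage, differed by -2.36 (SE 0.30). Of 24 erythroid, megakaryocyte and mast genes 6 (25%) were lower and 1 (4.17%) higher, beside 19.2% and 6.96% of all genes. Their median was 0.12, with 7 genes separated above LMPP and 8 below, so the list as a whole did not fall. The mean of probe sets was -2.35 for Vldlr and -3.18 for H1f2, and without LMPP replicate 1 the erythroid list had 3 lower.

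Enzymes that modify DNA and histones mostly did not pass the test. Of 21, 4 (19.0%) were called higher and 1 (4.76%) lower, beside 6.96% and 19.2% of all genes, with a median of 0.28. Dnmt3a, a DNA methyltransferase, read 7.91, 7.47 and 7.96 in CLP and 6.20 and 6.47 in LMPP (1.44, SE 0.29). The demethylation enzymes Tet1 (0.92, SE 0.30) and Tet3 (0.89, SE 0.26) and the deacetylase gene Hdac9 (1.17, SE 0.29) were the others called higher. In the ETS family 2 of 17 (11.8%) were higher, Ets1 and Elk4 (1.39, SE 0.29), and 3 (17.6%) were lower. The family's median was -0.0017, and these shares lay near those of all genes. Without CLP replicate 1 or either LMPP array, 1 of the family was higher and 1 lower. Bcl2l11, which encodes the pro-apoptotic protein Bim, was higher in CLP, at 9.88, 9.73 and 10.22 against 8.54 and 8.19 in LMPP (1.58, SE 0.29). Averaging probe sets gave 0.32 for Dnmt3a, 0.33 for Tet1 and 0.49 for Elk4, none still called, and 0.91 for Bcl2l11 and 0.55 for Hdac9, and the calls on Tet1 and Tet3 ended without CLP replicate 1 (0.75 and 0.65) or LMPP replicate 2 (0.54 and 0.71), as did that on Hdac9 without LMPP replicate 2 (1.08), where 1 gene of the list remained called higher.

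The neighbouring steps place these changes along the lymphoid path. They share the LMPP or the CLP arrays with the comparison above, so each is given by its own values. From the same model, 231 genes (1.71%) were called for LMPP against MPP, 127 (0.942%) higher and 104 (0.772%) lower, and 4726 genes (35.1%) for pro-B cells against CLP, 2840 (21.1%) higher and 1886 (14%) lower. Ebf1 did not pass the test at either neighbouring step, with -0.17 (SE 0.37) for LMPP minus MPP and 0.20 (SE 0.34) for pro-B minus CLP. Rag1 was lower in pro-B cells than in CLP (-2.005, SE 0.39, adjusted p = 0.000758), whereas Vpreb1 was higher there by 2.81 (SE 0.39) and Igll1 by 4.47 (SE 0.30). Pou2af1 was higher in pro-B cells by 4.97 (SE 0.50) and Irf4 by 3.56 (SE 0.33). Flt3 was higher in LMPP than in MPP (1.96, SE 0.43) and lower in pro-B cells than in CLP (-4.72, SE 0.39). Notch1 had the same order, with 2.91 (SE 0.31) for LMPP minus MPP and -3.22 (SE 0.28) for pro-B minus CLP.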

How the data were processed

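RNA of 20 sorted samples in 9 groups was measured on 1-colour Affymetrix mouse genome arrays. The authors deposited intensities on a linear scale, normalised by RMA per the submitters' processing notes; its version and settings are not given in the sources used here. RMA makes array medians alike and so hides a global change in RNA content. The design foresaw log2 values, so log2 was taken first. Of 45101 probe sets, 34958 have 1 gene symbol, 932 several and 9211 none. Each gene was represented by its single-symbol probe set of highest mean, and the 13479 of 18194 genes that exceeded the median of their array in 2 or more arrays were tested. limma 3.58.1 in R 4.3.3 fitted 9 groups with an intensity trend (11 residual degrees of freedom), with Benjamini-Hochberg adjustment over all tested genes. The fit was tested on simulated data.

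Alternatives were other filters, averaged or separate probe sets, no trend, quantile normalization, housekeeping centring, the 5 arrays alone, a replicate block, array weights, a 2-fold threshold, each array left out, and CLP replicate 2 as the single CLP array. The members and the 31 gene lists were chosen with earlier results of these data known. Named genes are the 15 largest rises and 15 largest falls among genes called and separated, no more than 5 called genes per list (without calls, the 2 of greatest change), and any member of the defining, recombination, B factor and pre-B lists. Unnamed gene models, antigen receptor segments and sex-linked genes were left out of the largest changes. The separation of the genes with the largest changes follows from this choice. Promoter windows came from RefSeq (GRCm38.p6), with 10845 tested genes matched.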

Additional observations from a re-analysis of the deposited data

How the results depend on the processing

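CLP exceeded or fell below LMPP in 938 and 2584 genes at an adjusted p below 0.05 (914 and 2502 also separated), and these counts stayed within 1.5 times under other filters, no intensity trend, averaged probe sets and array weights. Repeated quantile normalization gave 1606 higher (1557 separated), and centring on housekeeping genes gave 6101 higher and 846 lower (5417 and 797 separated), which follows from the added 0.84. The 5 arrays alone gave 152 higher and 399 lower (both also the separated counts), and a 2-fold threshold gave 66 and 160 (likewise). CLP replicate 2 as the single CLP array gave 566 and 663 (likewise), and testing 29047 probe sets singly gave 1960 and 4230 (1932 and 4144 separated). Leaving out 1 array at a time gave between 351 and 1492 higher and between 1223 and 3731 lower, and between 351 and 1483 and between 1223 and 3722 among separated genes. Of the 113 named genes called, 47 lost the call under at least 1 alternative and 25 on leaving out 1 array. The 5 arrays alone ended 34, and a 2-fold threshold 46. Ended with the 5 arrays alone were Bst1, Btk, Cd247, Cd48, Cd5, Cd6, Cd74, Cd8a, Cd93, Dnmt3a, Egr1, Ets1, Gstm1, Hdac9, Hmgb2 and Jak1. The others were Meis1, Mpo, Myb, Mzb1, Nhej1, Nkg7, Pax5, Pcna, Rora, Sdc1, Socs2, Spi1, Tal1, Tcf3, Tet1, Tet3, Xrcc4 and Zfp521. The main fit pools the spread of all groups, with root-mean-square SD from 0.17 in GMP to 0.56 in CLP. Rora turned to -0.25 with averaged probe sets, and Zfp521 to 0.055 with housekeeping centring. The replicate numbers are not known to pair the arrays: deviations of CLP replicate 1 and LMPP replicate 1 correlated at 0.010, and with the replicate number as a block 841 genes were higher and 2124 lower (805 and 2102 separated), with 2 of the 113 calls ending. The causes of these shifts were not tested beyond the construction of each alternative. With 3 and 2 arrays the number of arrays limits the precision, and dim genes are limited by the lack of detection calls.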

Other observations

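Lists that bear on other cell types and responses are read beside the 6.96% of all genes called higher and the 19.2% called lower. Of 17 dendritic and antigen presentation genes, 4 were called higher and 3 lower in CLP than in LMPP, with 1 higher without CLP replicate 1 or either LMPP array and 2 without CLP replicate 3. Of 13 mature B and plasma cell markers 1 was higher and 1 lower. The higher one was Sdc1, the plasma cell marker syndecan 1, at 6.08, 7.33 and 6.40 in CLP and 5.82 and 5.25 in LMPP (1.07, SE 0.28), and without CLP replicate 2 its difference was 0.70, while without LMPP replicate 2 its call ended (0.78). Of 29 interferon-stimulated genes 2 (6.90%) were higher and 9 (31.0%) lower, with 3 lower without LMPP replicate 1 and 5 without LMPP replicate 2, and 14 without CLP replicate 2. Of 16 Hox, Meis and Pbx genes 3 were lower and none higher, and of 7 E protein and Id genes 2 were lower and none higher. Of 19 growth factor receptors 3 were higher and 2 lower, and of 15 genes of the BCL2 family and apoptosis 1 was higher and 4 were lower, with none lower without either LMPP array.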
